A study of Homo sapiens with 21 samples.

Results

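The 34 genes described here are direct targets of the transcription factor p53 listed apart from those of apoptosis and from CDKN1A, the gene of the cell-cycle inhibitor p21. A few of them, such as AEN, PERP and NINJ1, are nonetheless also known for roles in cell death. They were found by gene symbol in a table of RNA sequencing values, with a value of at least 10 required in at least 3 libraries. All 34 were found and passed, among 11579 genes tested of 16383 listed, and the lowest count of any of them in any library was 99 reads. The cells were IMR90 lung fibroblasts, a human cell line in wide use, and 3 libraries were sequenced for each of 7 groups. One group was proliferating and, per the labels, neither irradiated nor transfected. The other 6 groups were irradiated, transfected with siRNA at 5 nM on day 4 and again on day 7, and harvested on day 10. Their siRNAs were the non-targeting controls NT3 and NT4 (numbered differently in the series text), or were directed against CCND1, which encodes cyclin D1, against CDK4, against CDK6, or against CDK4 and CDK6 together (the dual knockdown). Irradiation and transfection cannot be told apart in a comparison with proliferating cells, and the labels give 1 siRNA name per target, so an effect of a reagent and of its target cannot be told apart either. The labels do not say that the libraries of a group came from separate cultures, so p-values measure only the spread between these libraries, which may be technical.

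DNA damage stabilises p53, which binds a tandem pair of half-sites in DNA and raises transcription of its targets. Some targets, MDM2 first among them, switch p53 off again, and others slow growth, repair DNA, supply nucleotides, limit oxidative damage, drive autophagy or signal to other cells. Fibroblasts that stop dividing for good after irradiation are known to keep this pathway active, together with cyclin D and its kinase partners CDK4 and CDK6.

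The DNA that p53 is known to recognise was looked for around these genes, because they are listed as its direct targets. Of the 34 genes, 27 had a start site in the RefSeq promoter table (GRCh38), and 2000 bases on each side of it were searched on both strands for the best match to the p53 consensus site, an abutting pair of half-sites of 20 bases in all. A site counted only if the fixed C and G at the core of both half-sites matched. Under that rule at least 18 of the 20 positions matched in 9 of the 27 genes (33.3%), against 3.22% of all 27305 promoters searched the same way. At least 19 positions matched in 4 of the 27 (14.8%), against 0.52% of all promoters. In the 300 bases from 250 before to 50 after the start, 4 of the 27 (14.8%) held a perfect half-site, against 6.54% of all, and none held a perfect pair with a spacer of 0 to 13 bases, against 0.029% of all. These genes were listed as p53 targets, so the shares are a description. The 9 best matches are shown from 5′ to 3′ on the strand of the gene, with the matched pair of half-sites in capitals and 5 flanking bases on each side.
ZMAT3: tcataAAACAAGTCCAGACATGCCTaggca
CCNG1: tgtgaGCACAAGCCCAGGCTAGTCCgaggc
DDB2: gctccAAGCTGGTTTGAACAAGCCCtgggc
EDA2R: tctgaGAACATGCCTGGACGTGTCCaacaa
AEN: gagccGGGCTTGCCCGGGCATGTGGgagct
BTG2: gggtcACGCATGTTCAGGCATGCATggaat
GDF15: attgcCATCTTGCCCAGACTTGTCTcgaac
MDM2: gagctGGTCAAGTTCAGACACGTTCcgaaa
SPATA18: aggaaGGACATGTGTGTACATGCCCttgtc
The ZMAT3 match, which met all 20 positions, lies in an intron at chr3:179070188-179070207 (hg38, minus strand), 1611 bases downstream of the start site. The matches with 19 positions lie in an intron of CCNG1 (chr5:163437926-163437945, plus strand), in an exon of DDB2 (chr11:47214969-47214988, plus strand) and in an intron of EDA2R (chrX:66638713-66638732, minus strand). Among those with 18 positions, MDM2 (chr12:68808923-68808942) and SPATA18 (chr4:52051957-52051976) have theirs in an intron downstream of the start. The AEN match (chr15:88621306-88621325) is centred at position -24 from the start and that of BTG2 (chr1:203303642-203303661) at -1867, both outside the annotated gene. The GDF15 match (chr19:18385308-18385327) is at -840, within an intron of another transcript. These 5 matches are on the plus strand. A match is a stretch of letters and not a measured binding event.

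Depth ran from 12892442 to 21822152 reads per library over the genes listed. All 8 fibroblast markers examined were present, with at least 1349 reads in every library, whereas epithelial, endothelial and leukocyte markers reached at most 46 reads (EPCAM), 31 reads (VWF) and 39 reads (CD14). The latter were 11 genes, of which these 3 passed the filter and all 3 rose in senescent cells. Of the 8 fibroblast markers, 6 fell and 1 rose there, where 36.1% of all tested genes fell and 32.6% rose. Against NT3 and NT4, CD14 fell after CCND1 (-1.01) and dual knockdown (-0.91). Of the fibroblast markers 3 rose and 1 fell after CCND1 knockdown, where 16.7% of all genes rose and 14.4% fell. After CDK4 knockdown 3 fell (7.55% of all genes), after CDK6 knockdown 4 rose (21.1%) and after dual knockdown 6 rose (22.5%). The part of these shifts in the results below was not tested. Summed values of the 4 leukocyte markers, for example, ran from 2.66 to 4.37 in proliferating libraries, from 21.3 to 43.8 in the 6 controls, from 7.47 to 20.2 after CCND1 knockdown and from 13.01 to 19.7 in the dual knockdown. Targeted genes stood at 11.8% of the mean of the 6 control libraries for CCND1 after its siRNA, 8.67% and 9.41% for CDK4 in the CDK4 and dual knockdowns, and 16.4% and 20.6% for CDK6 in the CDK6 and dual knockdowns. NT3 replicate 3 (replicates are numbered here in column order) stood apart: over all tested genes its log2 values departed from the group mean with an SD of 0.344, against at most 0.256 in the other 20 libraries. In bulk RNA, fewer cells of a type and less RNA per cell cannot be told apart. Values are normalised read counts, fold changes are on the log2(value + 1) scale, and a gene is said to have risen or fallen where its adjusted p in limma was below 0.05.

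Senescent control cells expressed most of these p53 targets above the level of proliferating cells. Against proliferating cells, 32 of the 34 rose and none fell in the mean of NT3 and NT4, where 32.6% of all tested genes rose and 36.1% fell (68.6% in either direction). In 28 of the 34, every one of the 6 senescent libraries was above every proliferating library, which held for 25.2% of all genes. The median log2 fold change was 0.84 over the 34 genes and -0.03 over all genes. A rise of more than 1 on the log2 scale was reached by 15 of them, against 10.9% of all genes. Against each control taken alone 30 remained called, where 24.9% of all genes rose by that rule, CCNG1 and XPC being lost against NT3.

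**Figure D1:**
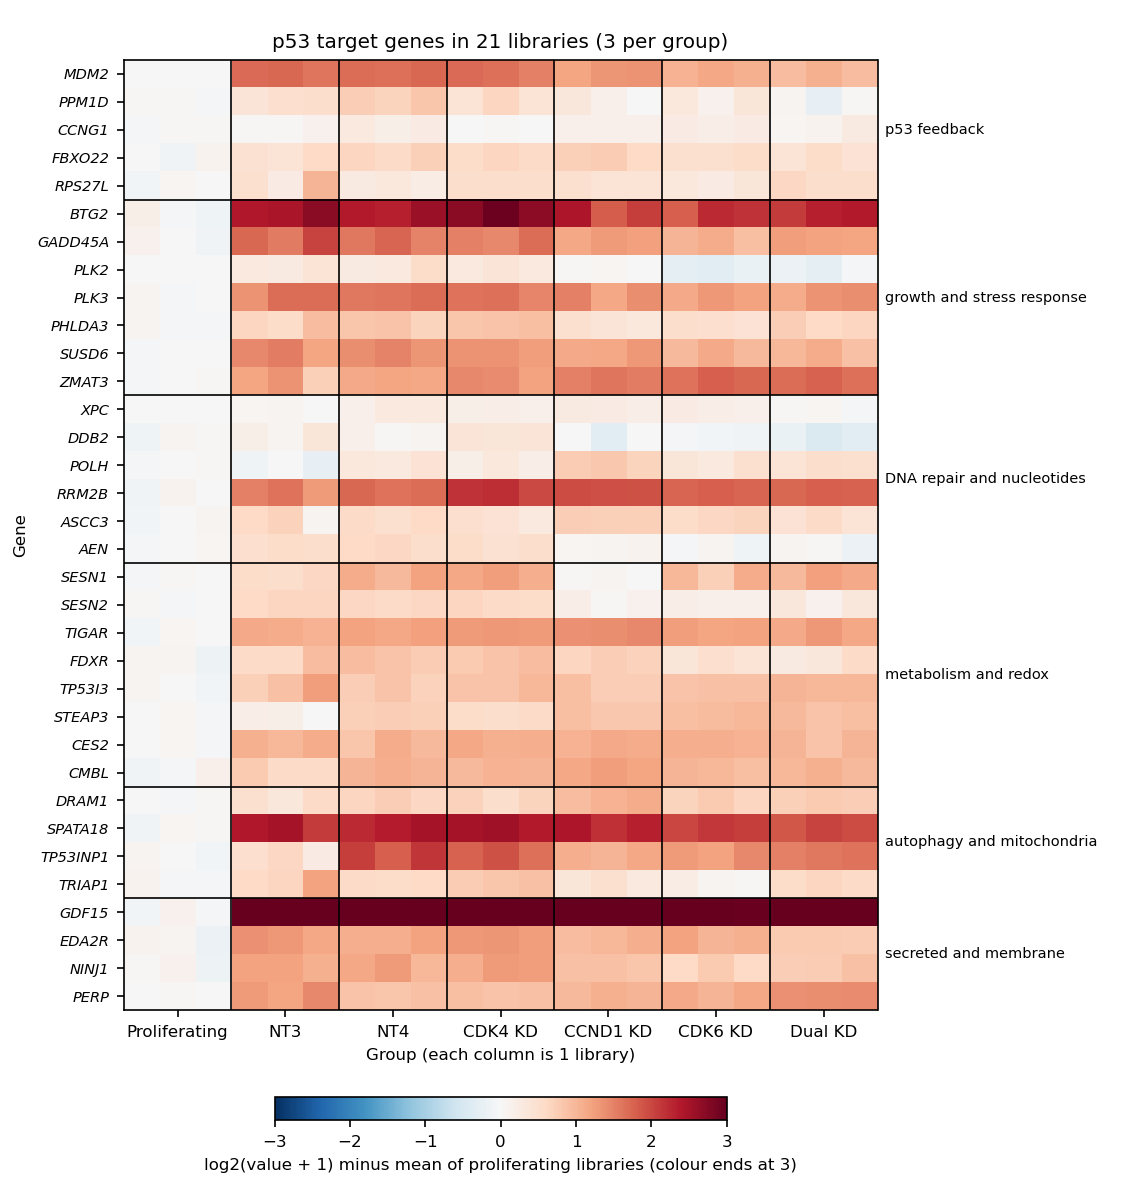
Log2 level of the 34 p53 target genes (rows, by role) in each of the 21 libraries (columns), relative to the mean of the proliferating libraries. Red is higher and blue is lower; the colour scale ends at 3, which GDF15 passes in 16 of the 18 irradiated libraries and narrowly misses in the other 2, both of CDK6 knockdown.

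The largest rise was in GDF15, a secreted cytokine of the TGF-beta superfamily that reports cell stress to the brain. GDF15 read 193, 221 and 198 in the 3 proliferating libraries, 5293, 5624 and 7139 with NT3 and 5056, 6414 and 5253 with NT4. The groups were far apart, and its log2 fold change was 4.81 (SE 0.10, limma adjusted p = 8e-20), a ratio of means of 28.4. The other secreted or membrane genes also rose. EDA2R, a receptor for ectodysplasin A2, rose by 1.21, NINJ1, which ruptures the plasma membrane of dying cells, by 1.15 and PERP, a membrane protein of cell junctions, by 1.08.

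All 5 genes that feed back on p53 rose. MDM2, the ubiquitin ligase that marks p53 for destruction, read 1862, 1885 and 1888 in proliferating cells, 6137, 6198 and 5734 with NT3 and 6004, 5861 and 6218 with NT4. The senescent libraries were all about equally high, and the log2 fold change was 1.68 (SE 0.05, limma adjusted p = 5.39e-17). PPM1D, a phosphatase that removes activating marks from p53 and its kinases, rose by 0.61. FBXO22, a ubiquitin ligase subunit, rose by 0.57, RPS27L, a ribosomal protein paralog that binds MDM2, by 0.43 and CCNG1, cyclin G1, by 0.15. The CCNG1 libraries overlapped between the groups, and its call was lost without proliferating replicate 1 (adjusted p = 0.0545 in limma). How reads shared with RPS27, a near copy of RPS27L, were assigned is not stated, so RPS27L values are uncertain.

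All 7 genes of growth arrest and stress signalling rose, with a median of 1.39 on the log2 scale. BTG2, which slows proliferation by promoting mRNA decay, read 123, 105.3 and 98.3 in proliferating cells, 578, 599 and 709 with NT3 and 569, 548 and 658 with NT4. Its senescent libraries lay well clear of the proliferating ones, with a log2 fold change of 2.48 (SE 0.12, limma adjusted p = 1.11e-13). GADD45A, a small stress protein that acts on stress kinases and on CDK1, read 1048, 944 and 883 in proliferating cells, 3151, 2829 and 3916 with NT3 and 2885, 3204 and 2679.6 with NT4. The highest of these was NT3 replicate 3, and without overlap between the groups GADD45A rose by 1.69 (SE 0.08, limma adjusted p = 7.96e-14). PLK3, a polo-like kinase of the stress response, read 279, 250.1 and 259 in proliferating cells, 669, 840 and 837 with NT3 and 791, 796 and 844 with NT4. It rose by 1.59 (SE 0.09, limma adjusted p = 4.7e-13), again with no overlap. SUSD6, a membrane protein that restrains growth, rose by 1.39, ZMAT3, an RNA-binding zinc finger protein that regulates splicing, by 1.12, PHLDA3, an inhibitor of AKT, by 0.74 and PLK2 by 0.34.

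Of the 6 genes of DNA repair and nucleotide supply 4 rose, and the median was 0.33 on the log2 scale. RRM2B, the p53-inducible subunit of ribonucleotide reductase, which makes deoxynucleotides outside S phase, rose by 1.57 (SE 0.06, limma adjusted p = 4.64e-15). AEN, a nuclease, rose by 0.56, ASCC3, a helicase that opens alkylated DNA, by 0.50 and XPC, which senses distorted DNA, by 0.15. The ASCC3 and XPC libraries overlapped between the groups. The remaining 2 did not pass. DDB2, which finds ultraviolet damage in chromatin, read 523, 605 and 587 in proliferating cells, 646, 606 and 734 with NT3 and 632, 589 and 604 with NT4. POLH, the polymerase that copies past damaged bases, read 1053, 1067 and 1105 in proliferating cells, 982, 1082 and 909 with NT3 and 1339.9, 1313 and 1457 with NT4. Both overlapped between the groups, with log2 differences of 0.15 (limma adjusted p = 0.0918) and 0.11 (limma adjusted p = 0.0975). The POLH difference was -0.12 against NT3 alone and 0.35 against NT4 alone. After median centring DDB2 passed at 0.26 and POLH at 0.23, and POLH also passed without NT3 replicate 3 (0.14) and DDB2 without NT3 replicate 2 (0.18).

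All 8 metabolic and redox genes rose, with log2 fold changes from 0.42 to 1.14. TIGAR, a phosphatase that diverts glucose from glycolysis into the pentose phosphate pathway, and CES2, a carboxylesterase, rose most (1.14 and 1.02). TP53I3, a quinone oxidoreductase, rose by 0.85, CMBL, a hydrolase, by 0.85 and FDXR, which passes electrons to mitochondrial ferredoxin, by 0.77. The sestrins, which restrain mTORC1 and oxidative stress, rose by 0.83 (SESN1) and 0.62 (SESN2). STEAP3, a reductase of endosomal iron, rose least. Its libraries overlapped between the groups, and its rise was 0.13 against NT3 alone and 0.72 against NT4 alone.

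All 4 genes of autophagy and mitochondria rose. SPATA18, which acts in the repair and removal of damaged mitochondria, read 179.9, 201 and 197 in proliferating cells, 1017, 1090.4 and 826 with NT3 and 918, 993 and 1081 with NT4. Its lowest senescent library, NT3 replicate 3, was still far above the highest proliferating one, and the log2 fold change was 2.35 (SE 0.08, limma adjusted p = 2.31e-16). TP53INP1, a stress protein of autophagy, rose by 1.23, TRIAP1, a carrier of lipid between mitochondrial membranes, by 0.70 and DRAM1, a lysosomal membrane protein that promotes autophagy, by 0.56.

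The 2 non-targeting siRNAs did not give the same levels of every gene, which bears on each knockdown below because all 4 were set against the same 6 control libraries. Between NT4 and NT3, 10 of the 34 rose and 2 fell, together 35.3%, where 27.8% of all tested genes passed (14.7% higher and 13.1% lower). TP53INP1 differed most, with 699.7, 751 and 580.1 in NT3 against 2061, 1700.1 and 2167 in NT4 and 521, 489.5 and 465 in proliferating cells. Every NT4 library was above every NT3 library, which held for 17.7% of all genes, and the log2 difference was 1.54 (SE 0.10, limma adjusted p = 2.95e-10). Higher in NT4 were also STEAP3 (0.59), SESN1 (0.53), POLH (0.47) and CMBL (0.40), followed by PPM1D, DRAM1, RRM2B, XPC and CCNG1 (0.17 to 0.28). Lower in NT4 were PERP (-0.44) and RPS27L (-0.31). Without NT3 replicate 3 the RPS27L difference was -0.09 and the RRM2B difference 0.11, neither of them passing, and CCNG1, PPM1D, DRAM1 and XPC each lost the call without at least 1 other library. MDM2 and GDF15 did not pass between the 2 controls.

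**Figure D2:**
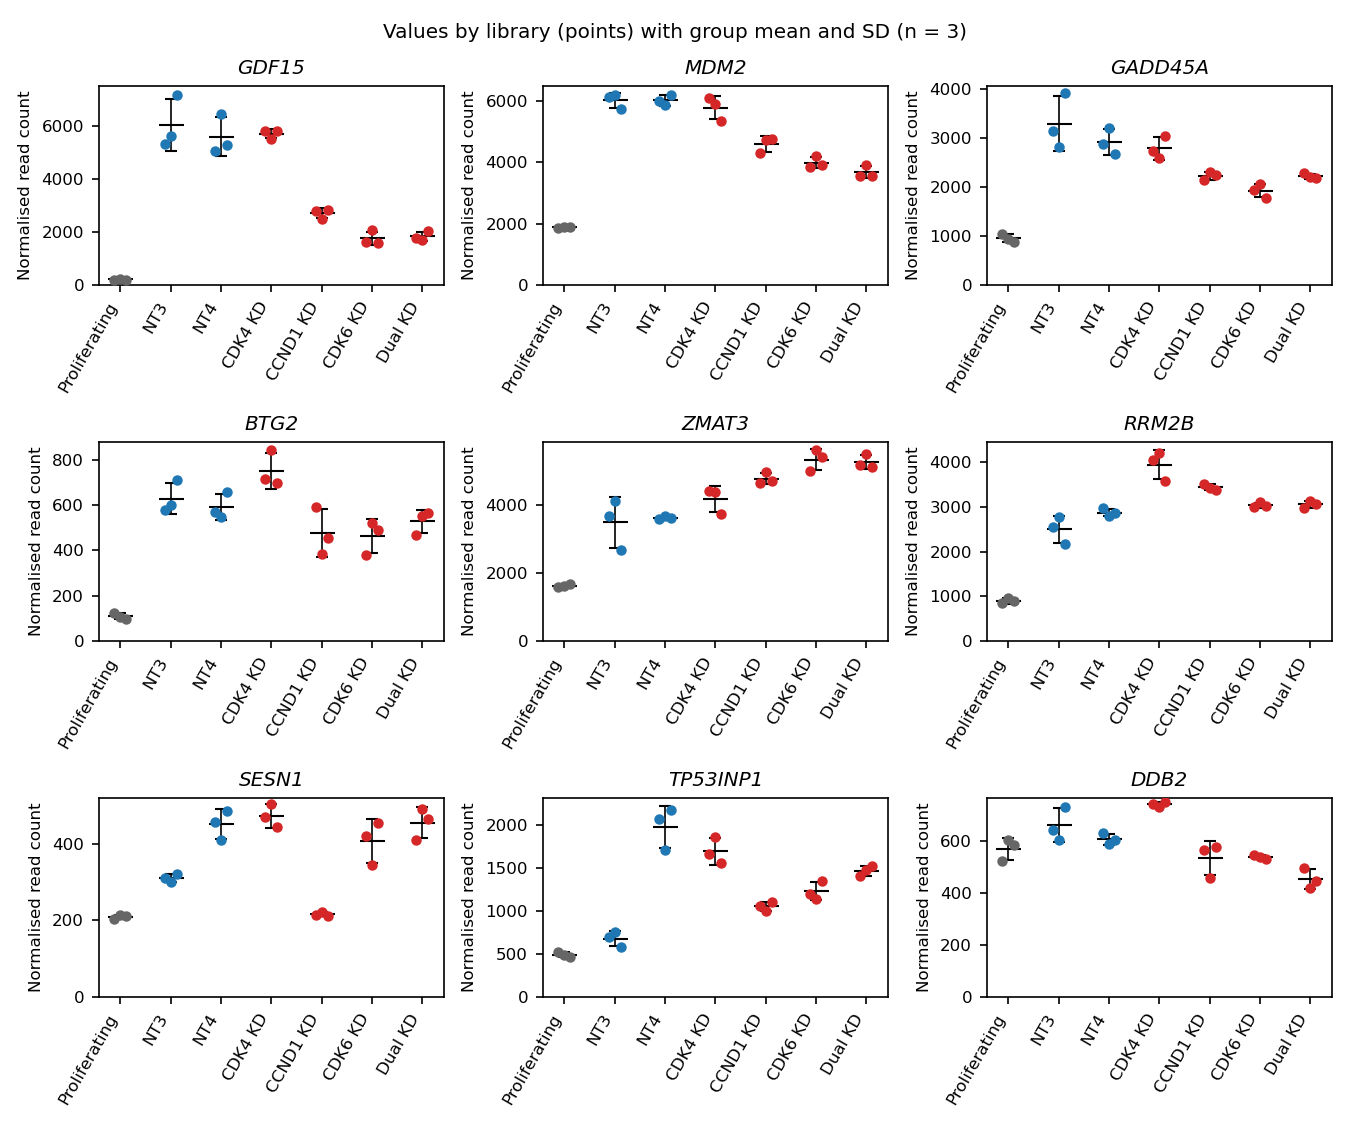
Normalised read count (linear axis from 0) of 9 of the genes in each library of the 7 groups, with the group mean and SD (n = 3). GDF15, MDM2 and GADD45A are below all control libraries in the CCND1, CDK6 and dual knockdowns, ZMAT3 is above them, and TP53INP1 separates the 2 controls.

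Knockdown of CCND1 lowered more of these genes than it raised. Against the mean of NT3 and NT4, 16 of the 34 fell and 7 rose, where 14.4% of all genes fell and 16.7% rose (31% in either direction). The median log2 fold change was -0.11 over the 34 genes and -0.01 over all genes. Calls against each control taken alone were kept by 10 falls and 5 rises, where 5.45% of all genes fell and 6.14% rose by that rule. The largest fall was in GDF15, which read 2789, 2499 and 2823 after CCND1 siRNA, below all 6 control libraries, as were 9.97% of all genes. It stood at 46.6% of the control mean, a log2 fold change of -1.09 (SE 0.10, limma adjusted p = 4.55e-08).

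SESN1 fell next most after CCND1 knockdown. It read 215, 221 and 211 there, against 309, 301 and 322 with NT3, 457, 409 and 487 with NT4 and 203, 213 and 213 in proliferating cells. The CCND1 libraries were below every control library, with a log2 fold change of -0.79 (SE 0.08, limma adjusted p = 4.79e-07). SESN2 (-0.50), AEN (-0.47), GADD45A (-0.47), PPM1D (-0.44) and MDM2 (-0.39) followed. MDM2 read 4302, 4719 and 4779.8, or 76.3% of the control mean, below all control libraries (limma adjusted p = 7.63e-06). PHLDA3 (-0.35), PLK2 (-0.31) and NINJ1 (-0.29) fell too and kept the call against each control. BTG2 (-0.37), TRIAP1 (-0.32), DDB2 (-0.25), PLK3 (-0.24), SUSD6 (-0.20) and EDA2R (-0.20) also fell, but each of these 6 lost the call against at least 1 control alone and without at least 1 library. For DDB2 and PLK3 the value was -0.14 in both without CCND1 knockdown replicate 2, and for BTG2 it was -0.23.

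The rises after CCND1 knockdown were led by POLH, with 1822, 1875 and 1714 against 982, 1082 and 909 in NT3 and 1339.9, 1313 and 1457 in NT4. Each CCND1 library exceeded each control library, as in 11.2% of all genes, with a log2 fold change of 0.63 (SE 0.06, limma adjusted p = 1.01e-07). DRAM1 read 3534, 3860.1 and 4008 against 2588, 2341 and 2762 in NT3 and 2912, 3098 and 2868 in NT4, also without overlap, and rose by 0.46 (SE 0.06, limma adjusted p = 2.55e-06). ZMAT3 (0.44), RRM2B (0.37) and TIGAR (0.25) rose against each control. STEAP3 (0.41) and CMBL (0.35) rose against the mean of both, but their differences from NT4 alone, 0.12 and 0.14, did not pass. Genes of the same role thus moved in opposite directions after CCND1 knockdown. Among the metabolic genes SESN1 and SESN2 fell while TIGAR rose, and among the repair genes AEN fell while POLH and RRM2B rose.

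Knockdown of CDK6 gave 16 falls and 5 rises among the 34 genes, where 20.8% of all genes fell and 21.1% rose (41.9% in either direction). The median log2 fold change was -0.12 over the 34 and -0.01 over all genes. Calls against each control taken alone were kept by 13 falls and 2 rises, where 10.9% of all genes fell and 10.1% rose by that rule. GDF15 read 1611, 2049.9 and 1595 after CDK6 siRNA. Its highest value was far under the lowest control value, and the level was 30.2% of the control mean, a log2 fold change of -1.72 (SE 0.10, limma adjusted p = 1.51e-11). Every CDK6 library was below every control library in 14.1% of all genes. GADD45A read 1939, 2056 and 1788, also below all control libraries, and fell by 0.68 (SE 0.08, limma adjusted p = 1.1e-06). MDM2 read 3856, 4206 and 3928, under every control value, or 66.3% of the control mean, and fell by 0.59 (SE 0.05, limma adjusted p = 1.13e-08).

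PLK2 (-0.61), AEN (-0.59), TRIAP1 (-0.58), NINJ1 (-0.49) and SESN2 (-0.45) also fell after CDK6 knockdown. Smaller falls that were kept against each control were those of PLK3 (-0.38), SUSD6 (-0.37), FDXR (-0.35), SPATA18 (-0.28) and PHLDA3 (-0.25). BTG2 (-0.40) and DDB2 (-0.23) lost the call against NT4 alone, and PPM1D (-0.34) lost it against NT3 alone. Without CDK6 knockdown replicate 1 the BTG2 difference was -0.27 and did not pass. ZMAT3 was the largest rise, with 4987, 5606 and 5400.4 against 3665, 4127 and 2675 in NT3 and 3586, 3663 and 3627 in NT4. All CDK6 libraries were above all controls, as in 14.4% of all genes, with a log2 fold change of 0.59 (SE 0.09, limma adjusted p = 1.35e-05). STEAP3 read 2913, 2999 and 3083 against 1798, 1752 and 1562 in NT3 and 2543, 2598 and 2548 in NT4, and rose by 0.52 (SE 0.05, limma adjusted p = 2.26e-08). POLH (0.27), RRM2B (0.18) and DRAM1 (0.14) rose against the mean of both controls but did not pass against NT4 alone. RRM2B also lost the call when any 1 CDK6 library was left out, and DRAM1 when any 1 of 7 libraries was (0.10 without CDK6 knockdown replicate 2), while DDB2 lost it without CDK6 knockdown replicate 2 or 3. SESN1 (0.11) and TP53INP1 (0.09) did not pass (SESN1 passed at 0.23 without CDK6 knockdown replicate 2), and both changed sign with the control: against NT3 and NT4 alone they were 0.38 and -0.15 for SESN1 and 0.86 and -0.68 for TP53INP1.

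In the dual knockdown 15 of the 34 genes fell and 9 rose, where 21.5% of all genes fell and 22.5% rose (44% in either direction). The median was -0.11 over the 34 and 0.00 over all genes, and 14 falls and 2 rises were kept against each control, where 12.3% of all genes fell and 11.3% rose by that rule. GDF15 read 1780.3, 1673 and 2018, all below the controls (as in 14.5% of all genes), at 31.5% of the control mean and a log2 fold change of -1.66 (SE 0.10, limma adjusted p = 1.28e-11). MDM2 read 3573, 3929 and 3568, likewise below every control, at 61.2% of the control mean and a log2 fold change of -0.71 (SE 0.05, limma adjusted p = 4.6e-10). PPM1D, another of the 5 genes that feed back on p53, fell by 0.65 (SE 0.09, limma adjusted p = 3.04e-06). It read 404, 325 and 396 against 503, 541 and 557 in NT3 and 642, 613 and 684 in NT4. AEN (-0.57), PLK2 (-0.52), DDB2 (-0.48) and GADD45A (-0.48) fell too. EDA2R (-0.42), SUSD6 (-0.40), SPATA18 (-0.40), FDXR (-0.37), NINJ1 (-0.36), SESN2 (-0.35) and PLK3 (-0.31) fell by less. PLK3 did not pass without dual knockdown replicate 1 (-0.22), and XPC (-0.14) did not pass without replicate 3 or against NT3 alone. BTG2 (-0.21), PHLDA3 (-0.08) and TRIAP1 (-0.11) did not pass in the dual knockdown.

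**Figure D3:**
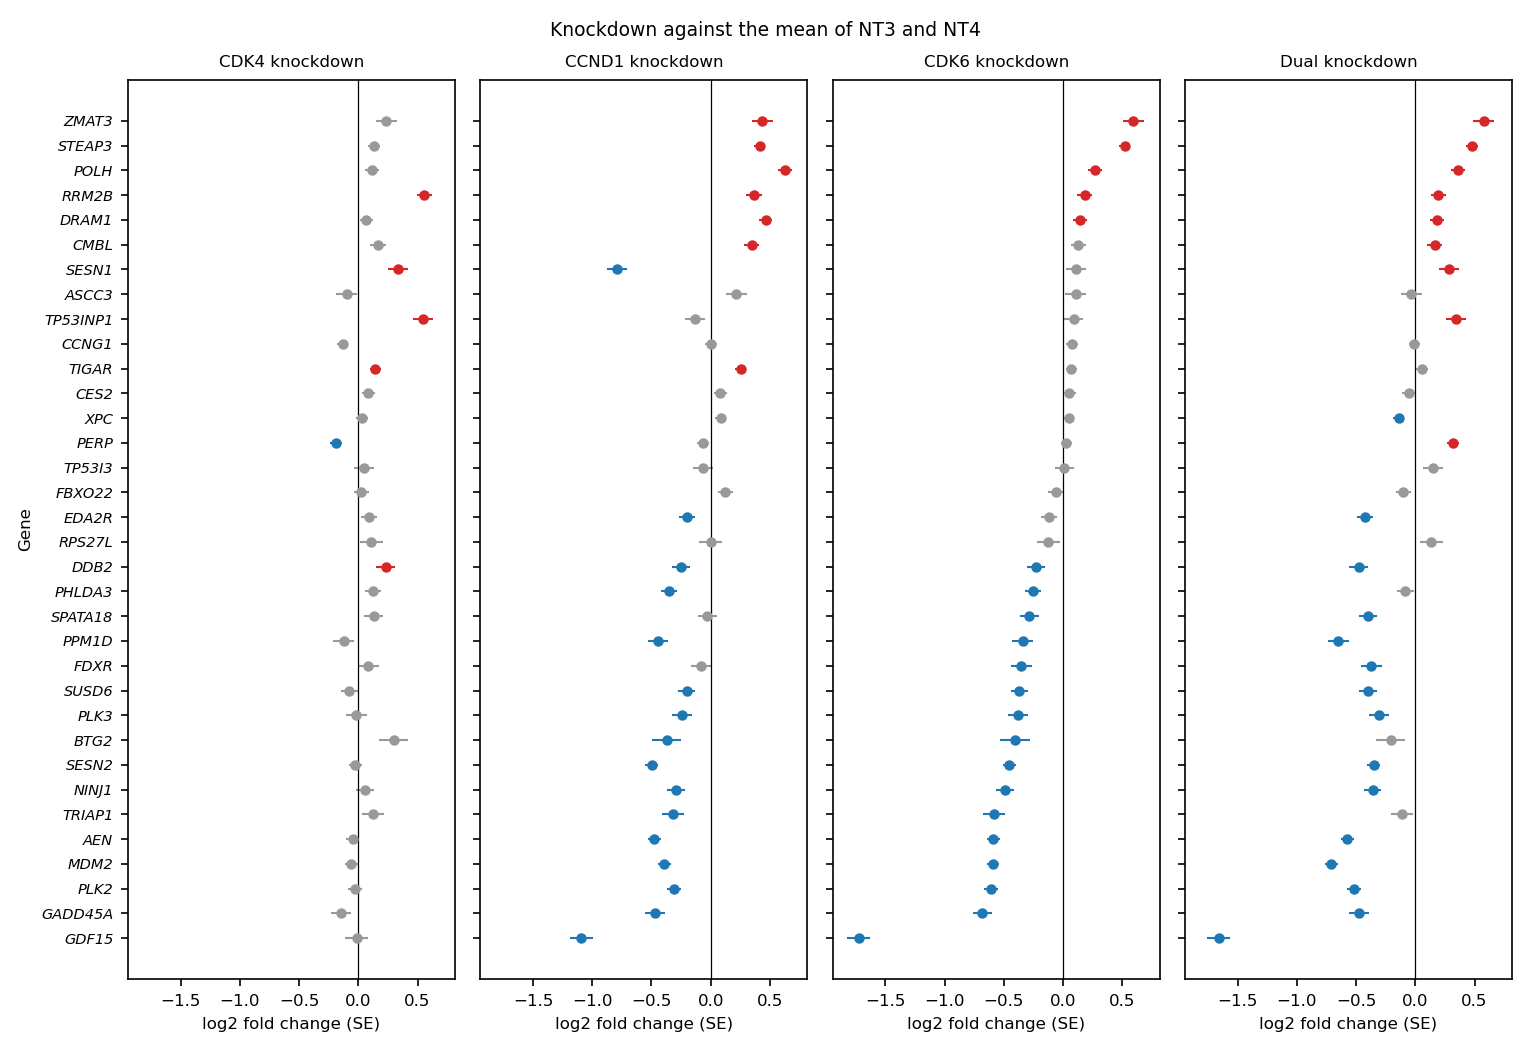
Log2 fold change with SE of each gene in the 4 knockdowns, each set against NT3 and NT4 averaged, with red for a rise and blue for a fall at an adjusted p below 0.05 and grey for neither. The 4 panels share the same 6 control libraries; GDF15 is the largest fall in 3 of them and is near 0 after CDK4 knockdown.

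ZMAT3 and STEAP3 were the largest rises of the dual knockdown and the 2 kept against each control. ZMAT3 read 5188, 5498 and 5119 and STEAP3 3032, 2813 and 2884, all above the control libraries, as in 13.8% of all genes. Their log2 fold changes were 0.58 (SE 0.09, limma adjusted p = 1.54e-05) and 0.48 (SE 0.05, limma adjusted p = 5.42e-08). POLH (0.36), TP53INP1 (0.35), PERP (0.32), SESN1 (0.28), RRM2B (0.20), DRAM1 (0.18) and CMBL (0.16) rose against the mean of both controls but did not pass against each control alone. The TP53INP1 libraries, with 1401, 1473 and 1517, lay between the 2 controls, so that its difference was -0.43 against NT4 alone (limma adjusted p = 0.00161). PERP, at 0.10 against NT3 alone, did not pass there. Without dual knockdown replicate 2 the calls of SESN1 (0.22), RRM2B (0.18), DRAM1 (0.16) and CMBL (0.13) were lost. RRM2B was also lost without replicate 3 (0.19), and CMBL without any 1 of 6 other libraries.

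Knockdown of CDK4 changed few of these genes. Against the mean of NT3 and NT4, 5 rose and 1 fell, together 17.6% of the 34, where 16% of all genes passed (8.46% higher and 7.55% lower). GDF15, with 5793, 5501 and 5796, lay within the range of the controls at 98.3% of their mean, and MDM2, with 6097, 5914 and 5363, stood at 96.1%. Neither passed: the log2 differences were -0.01 (SE 0.10) and -0.06 (SE 0.05). RRM2B was the gene that passed against each control, where 2.05% of all genes rose and 2.63% fell by that rule. It read 4055, 4210.1 and 3572 after CDK4 siRNA against 2549, 2769 and 2176 in NT3 and 2964, 2788 and 2865 in NT4. With every CDK4 library above every control library, as in 5.41% of all genes, it rose by 0.56 (SE 0.06, limma adjusted p = 3.3e-06).

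The other calls after CDK4 knockdown rested on the choice of control or on single libraries. TP53INP1, with 1664, 1853 and 1549.7, rose by 0.55 (SE 0.08, limma adjusted p = 0.000106) against the mean of both controls but stood at -0.22 against NT4 alone. PERP, with 5831, 5637 and 5751, fell by 0.19 (SE 0.05, limma adjusted p = 0.0119) but stood at 0.03 against NT4 alone. SESN1 (0.34), DDB2 (0.23) and TIGAR (0.14) rose, and each lost the call without CDK4 knockdown replicate 2. DDB2 and TIGAR also lost it without either other CDK4 library, any single NT4 library or NT3 replicate 2, and DDB2 without NT3 replicate 1. Of the 34 genes, 2 were called without CDK4 knockdown replicate 2, and 13 without NT3 replicate 3. The calls over all genes moved too, from 1854 to 1061 without CDK4 knockdown replicate 2. Over all fits that left out 1 library they ran from 1061 to 2694.

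In 3 comparisons the knockdowns were set directly against each other, with the spread still estimated over all 7 groups. CDK6 knockdown was below CDK4 knockdown in 18 of the 34 genes and above it in 4, together 64.7%, where 34.8% of all genes passed (17.5% higher and 17.3% lower), and the median log2 difference was -0.26 over the 34 and -0.01 over all genes. GDF15 differed by -1.71 (SE 0.11, limma adjusted p = 1.65e-10). TRIAP1 read 761, 799.8 and 817 after CDK4 siRNA and 521, 472 and 459.8 after CDK6 siRNA. These libraries did not overlap, which held for 51.7% of all genes in either direction, and the TRIAP1 difference was -0.71 (SE 0.11, limma adjusted p = 2.4e-05). BTG2 (-0.70), PLK2 (-0.58), NINJ1 (-0.54), AEN (-0.54), GADD45A (-0.54) and MDM2 (-0.53) were lower by more than 0.5 on the log2 scale. TP53INP1, DDB2, FDXR, SESN2, SPATA18, PHLDA3, RRM2B, PLK3, SUSD6 and EDA2R were lower by less (-0.46 to -0.21). Higher after CDK6 knockdown were STEAP3 (0.39), ZMAT3 (0.36), PERP (0.22) and CCNG1 (0.21). ZMAT3 at 0.28 did not pass without CDK4 knockdown replicate 3, and EDA2R lost its call when any 1 of 5 libraries was left out.

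The dual knockdown differed from CDK6 knockdown alone in 5 of the 34 genes (14.7%), where 13% of all genes passed (6.05% higher and 6.94% lower). With these groups fitted alone 10 of the 34 passed, and 2434 of all genes instead of 1504. TRIAP1, with 656, 699 and 663 in the dual knockdown against 521, 472 and 459.8 after CDK6 siRNA, was higher by 0.47 (SE 0.11, limma adjusted p = 0.00498). PERP, with 7970, 8158 and 8333 against 6797, 6315 and 6954, was higher by 0.29 (SE 0.06, limma adjusted p = 0.00175). Neither gene overlapped between the groups, which held for 36.2% of all genes in either direction. PPM1D (-0.31), EDA2R (-0.31) and XPC (-0.19) were lower, and all 3 lost the call without CDK6 knockdown replicate 1 (-0.28, -0.25 and -0.16). Each of PPM1D (-0.21 without dual knockdown replicate 2) and XPC (-0.15 without replicate 3) lost it without other single libraries too.

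CCND1 knockdown was above the dual knockdown in 11 of the 34 genes and below it in 4, together 44.1%, where 20.3% of all genes passed (11.2% higher and 9.12% lower). With these groups fitted alone 23 of the 34 passed, and 3177 of all genes instead of 2354. SESN1 differed most, with 215, 221 and 211 after CCND1 siRNA against 411, 491 and 464 in the dual knockdown, a log2 difference of -1.07 (SE 0.10, limma adjusted p = 5.68e-08) with no overlap. Libraries of these groups did not overlap in 40.9% of all genes. TP53INP1 (-0.48), PERP (-0.38) and PHLDA3 (-0.27) were also lower after CCND1 knockdown. GDF15 was higher there by 0.57 (SE 0.11, limma adjusted p = 0.000747), SPATA18 by 0.37 and MDM2 by 0.32. The other 8 that were higher (FDXR, DRAM1, POLH, EDA2R, FBXO22, XPC, PLK2 and TIGAR) differed by 0.20 to 0.29. Of the 15, FDXR, EDA2R, FBXO22, PLK2, TIGAR and PHLDA3 lost the call when 1 of several single libraries was left out.

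**Figure D4:**
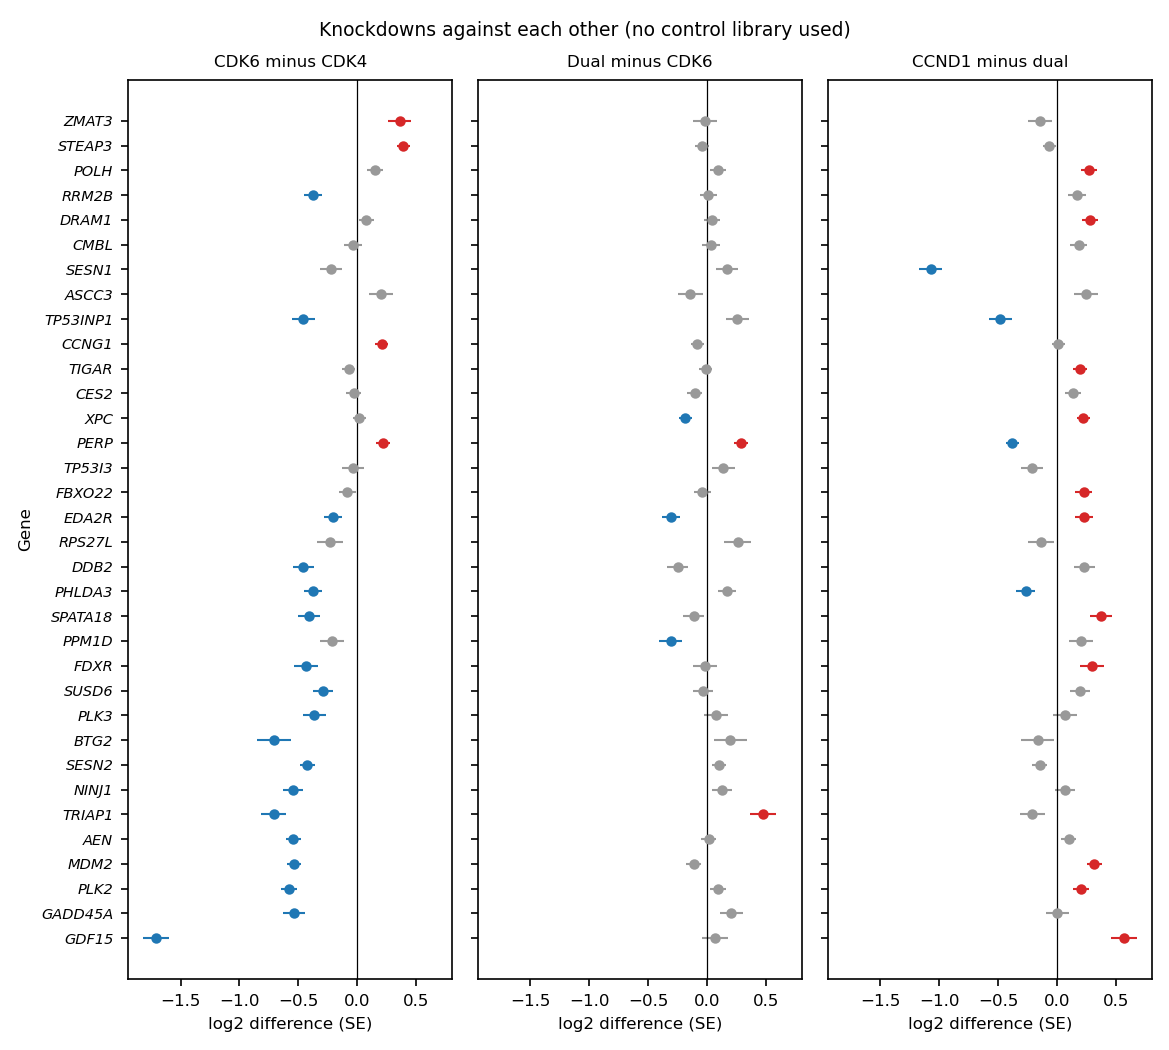
Log2 difference with SE between pairs of knockdowns for each of the 34 genes, coloured red for higher and blue for lower at an adjusted p below 0.05. CDK6 minus CDK4 lies mostly left of 0, dual minus CDK6 lies near 0, and SESN1 stands out in CCND1 minus dual.

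On the log2 scale, the effect of the dual knockdown departed from the single CDK4 and CDK6 effects added together in 4 of the 34 genes (11.8%), where 6.35% of all genes did. PERP departed upward (2.63% of all genes) and 3 genes downward (3.71% of all). RRM2B read 2976, 3137 and 3067 in the dual knockdown and 2995, 3102 and 3012 after CDK6 siRNA, both lower than after CDK4 siRNA alone. Its departure was -0.55 (SE 0.10, limma adjusted p = 0.00118). DDB2 read 498, 420.4 and 447 in the dual knockdown, 743, 735 and 751 after CDK4 siRNA and 548, 541 and 531 after CDK6 siRNA. It was highest after CDK4 and lowest after the dual knockdown, with a departure of -0.48 (SE 0.12, limma adjusted p = 0.0174). PERP departed upward by 0.48 (SE 0.08, limma adjusted p = 0.000394), and by 0.26 with NT4 alone as control, where it did not pass. EDA2R departed by -0.40 (SE 0.10, limma adjusted p = 0.022), a call that was lost without any 1 of CDK4 knockdown replicates 1 and 2, CDK6 knockdown replicate 1 and dual knockdown replicate 3 (-0.34 to -0.39).

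The dual knockdown libraries stayed above proliferating cells in most of these genes. Of the 34, 29 were higher than in proliferating cells and 2 were lower, where 32.7% of all genes were higher and 32.9% lower (65.6% in either direction), and the median log2 fold change was 0.85 over the 34 and 0.00 over all genes. GDF15 was 8.94 times the proliferating mean in the dual knockdown, against 28.4 times in the irradiated controls, and MDM2 was 0.97 above it on the log2 scale, against 1.68. AEN (-0.02), PPM1D (-0.04) and XPC (0.01) did not pass between the dual knockdown and proliferating cells. AEN read 1468, 1425 and 1219 in the dual knockdown against 1349, 1371 and 1433 in proliferating cells, and PPM1D 404, 325 and 396 against 390.4, 395 and 367, both overlapping. DDB2 was lower than in proliferating cells, with a log2 difference of -0.33 (SE 0.09, limma adjusted p = 0.00278). PLK2, with 1973, 1857 and 2150.3 against 2234, 2255 and 2235, was also lower, at -0.17 (SE 0.07, limma adjusted p = 0.0319). After median centring, which moved the median of all genes from 0.00 to 0.13, both lost the call (-0.20 and -0.04) and XPC passed as higher (0.14), and PLK2 also lost it without dual knockdown replicate 1 or 2 or any 1 proliferating library. CCNG1 (0.14) lost its call without dual knockdown replicate 3 (0.09) or proliferating replicate 1.

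**Figure D5:**
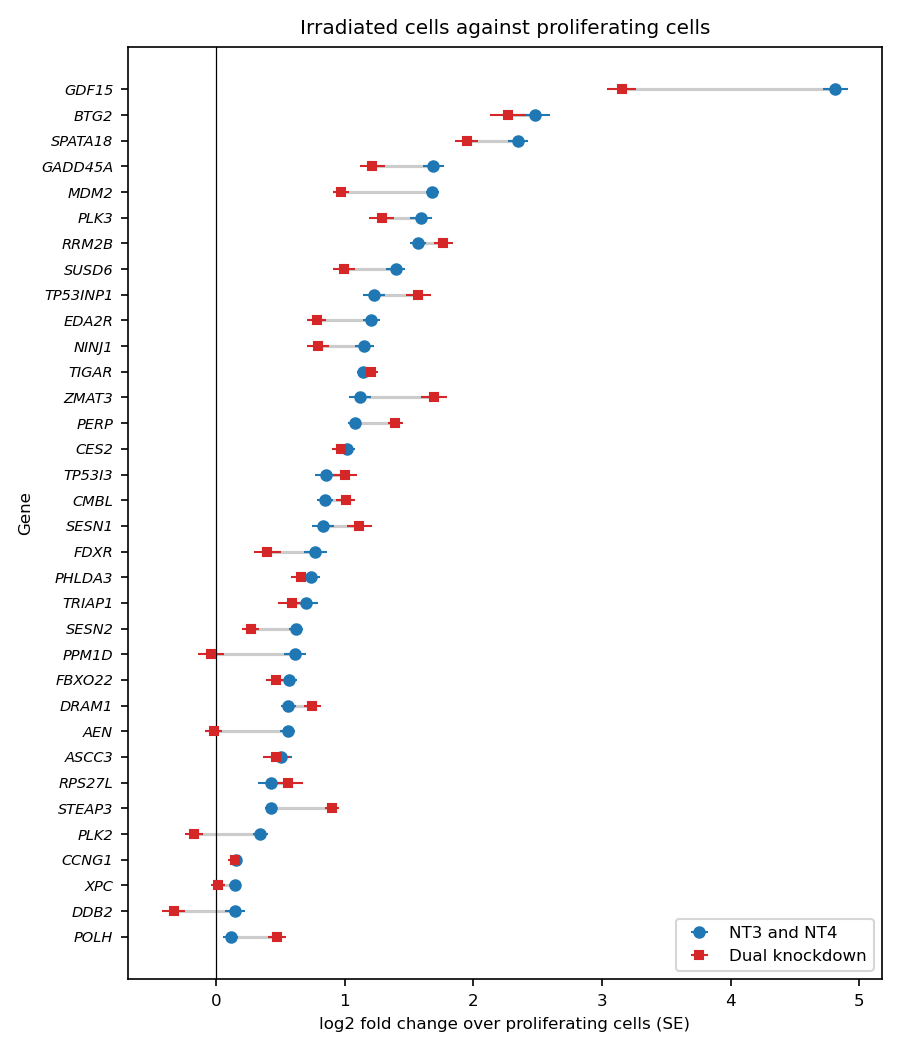
Log2 fold change over proliferating cells with SE for the mean of NT3 and NT4 (circles) and the dual knockdown (squares), ordered by the former. Both use the same proliferating libraries; the grey bar between the points is longest for GDF15, and AEN, PPM1D and XPC lie near 0 in the dual knockdown.

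None of the listed regulators and relatives of p53 that could be tested rose in senescent cells. Of 19 such genes 17 could be tested, and 11 fell, where 36.1% of all tested genes fell and 32.6% rose. MDM4, the partner of MDM2 that masks the activation domain of p53, read 659, 643 and 516 in proliferating cells, 262, 291 and 221 with NT3 and 431, 399 and 385 with NT4. All senescent libraries were below all proliferating ones, as in 28.9% of all genes, with a log2 fold change of -0.90 (SE 0.09, limma adjusted p = 1.52e-08). The largest fall was that of USP28, a deubiquitinase that stabilises p53 (-1.42). In the dual knockdown 2 of the 17 rose and 5 fell, where 22.5% of all genes rose and 21.5% fell. The largest rise was that of DYRK2, a kinase of p53 (0.49), and the largest fall that of CHEK1, a checkpoint kinase (-0.71).

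CDKN1A and the p53 targets of apoptosis numbered 11 tested genes of 12 listed. In senescent cells 9 of the 11 rose and 1 fell, where 32.6% of all tested genes rose and 36.1% fell. CDKN1A rose by 2.55 (SE 0.04, limma adjusted p = 3.93e-21), and APAF1, the scaffold of the apoptosome, fell by 1.21. The APAF1 difference was -1.87 against NT3 alone and -0.55 against NT4 alone. CDKN1A then differed from NT3 and NT4 by -0.07 after CCND1 (not passing), -0.49 after CDK4, -0.29 after CDK6 and -0.74 after dual knockdown. It read 21009, 20633 and 20978 after CDK4 siRNA, 23532, 24235 and 24042 after CDK6 siRNA and 17255, 17118 and 18429 in the dual knockdown, against 28151, 29414 and 30843 for the lowest, median and highest of the 6 controls. All of these knockdown libraries were below all controls, as in 5.75%, 14.1% and 14.5% of all genes after CDK4, CDK6 and dual knockdown. After CDK4 knockdown CDKN1A fell in a comparison in which GDF15 and MDM2 did not pass. Of the 11 genes, 1 rose and 7 fell in the dual knockdown, where 22.5% of all genes rose and 21.5% fell. The 1 that rose was APAF1 (0.85), which did not pass against NT4 alone (0.19).

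Another 29 genes known as p53 targets were listed outside the 34, and 26 of them could be tested. In senescent cells 23 rose and 2 fell, where 32.6% of all tested genes rose and 36.1% fell. RRAD, a small GTPase that restrains glucose uptake, read 31.4, 27.7 and 31.9 in proliferating cells against 408, 518 and 633 for the lowest, median and highest of the 6 controls. It did not overlap between the groups and rose by 4.05 (SE 0.13, limma adjusted p = 5.93e-17). RAP2B, a Ras-related GTPase, fell by 0.83 (-1.28 against NT3 alone and -0.39 against NT4 alone). KITLG, the ligand of the receptor KIT, fell by 0.26, a call lost after median centring and without proliferating replicate 2 or 3. In the dual knockdown 5 of the 26 rose and 16 fell, where 22.5% of all genes rose and 21.5% fell. TNFRSF10D, a decoy receptor for the death ligand TRAIL, rose most (1.29) and RRAD, with 177, 185 and 215, fell most (-1.43), both without overlap with the controls.

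Genes that p53 lowers indirectly, through p21 and the DREAM repressor complex, fell in all 15 of 15 cases in senescent cells, where 36.1% of all tested genes fell. The largest fall was that of LMNB1, a nuclear lamin (-4.02). All 15 fell further in the dual knockdown, against 21.5% of all genes, and BIRC5, which encodes survivin, fell most (-3.08). In that same comparison MDM2, GDF15 and CDKN1A fell as well. After CDK4 knockdown 5 of the 15 rose and none fell, where 8.46% of all genes rose and 7.55% fell. After CCND1 knockdown 13 fell (14.4% of all genes), and after CDK6 knockdown 14 fell (20.8% of all genes).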

How the data were processed

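RNA was sequenced from 21 libraries in 7 groups of 3, with poly(A) capture per the labels. The deposited signal is called normalised counts per the file headers; each of the authors' values was a whole multiple of 1 step per library (tolerance 0.01), so reads were recovered. The submitters' processing notes name Trimmomatic 0.38.1, HISAT2 2.2.1, featureCounts 2.0.3, DESeq2 2.11.40.8 and the builds hg38 and GRCh38, without roles. How counting treated strand and shared reads is not given in the sources used here.

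The filter kept genes at 10 or more in 3 or more libraries. A single limma 3.58.1 model (R 4.3.3, trended empirical Bayes) covered all 7 groups, on log2 values after adding a pseudocount of 1. Tests were two-sided, with Benjamini-Hochberg adjustment over the 11579 genes within a comparison and a threshold of 0.05. The fit was tested on simulated data. Table columns carry no replicate number, so replicate numbers are names in column order and need not match those of the labels.

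Members and gene lists were chosen with earlier results of these data known. Values by library were given for MDM2 and GDF15, for the 6 largest changes in senescence, and for the 2 largest rises and falls of each knockdown, of the departure and of the direct comparisons with CDK4 or CDK6; MDM4, CDKN1A and the largest rise and fall of each other list were named. An item that this rule also named is not reported here. Further genes were shown after their values were seen. Settings also tried were no filter or a mean of at least 100, pseudocounts of 0.1 and 10, median centring, quantile normalization, each control alone, the compared groups alone, edgeR 4.0.16 and DESeq2 1.42.0 on recovered reads, leaving out each library and, added after the data were seen, sets of serial numbers as a block. Sites were read from the RefSeq table and the GRCh38 genome. Depth was 12892442 to 21822152 reads per library, which limits precision for genes with few reads; no gene described here had fewer than 99 reads among the 34.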

Additional observations from a re-analysis of the deposited data

Results flagged for a closer look

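In 4 of the 34 genes the effect of CDK4 knockdown differed between cells with and without CDK6 knockdown, tested in limma as the dual knockdown minus the sum of the single knockdowns on the log2 scale, where 6.35% of all genes did. RRM2B departed by -0.55 (limma adjusted p = 0.00118), DDB2 by -0.48 (limma adjusted p = 0.0174) and EDA2R by -0.40 (limma adjusted p = 0.022), the EDA2R call being lost in 4 of the fits that left out 1 library. PERP departed by 0.48 (limma adjusted p = 0.000394), and by 0.26 with NT4 alone as control (limma adjusted p = 0.0918). RRM2B, a subunit of ribonucleotide reductase, was above all control libraries after CDK4 knockdown, and its dual knockdown libraries were close to those of CDK6 knockdown. A cause was not tested.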

How the results depend on the processing

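The table's columns carry no replicate number, but serial numbers in the names of the 18 irradiated libraries form 3 sets that hold each group once. Same-set libraries deviated together only weakly: 1 of 45 correlations of their deviations from the group means was over 0.1. The median was 0.037, against -0.017 for libraries in different sets. Of the 18 libraries, 13 correlated best, on average, with their own set. A replicate block on these sets, chosen after seeing the data, gave 4 to 32 called among the 34 genes, with 23 for CDK6 against CDK4 (22 without it) and the same number in the other 10 comparisons. DDB2 and TIGAR after CDK4 knockdown and FDXR for CCND1 against dual lost the call under it (limma adjusted p = 0.0532, 0.055 and 0.0502), while 2 other genes in the former comparison and 1 in the latter gained it. Single-gene values under alternatives were followed only for genes called in the main fit of a comparison and for some other named genes. Of these values, 4086 kept their direction and their side of the threshold, 219 lost the call, 17 gained it and 24 changed sign. Calls gained by genes not followed are not in these numbers.

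The number of the 34 genes called changed by more than 1.5 times in these cases. With the compared groups fitted alone it was 6 for NT4 against NT3 (12 in the fit to all groups), 3 for CDK4 knockdown (6), 10 for dual against CDK6 (5) and 23 for CCND1 against dual (15). With NT4 alone as control it was 3 for CDK4 knockdown, and with NT3 alone it was 11 for the departure from the sum (4). Leaving out 1 library gave 7 to 12 for NT4 against NT3, 2 to 13 for CDK4 knockdown and 2 to 6 for dual against CDK6. The cause was not tested.

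Over all genes, CDK4 knockdown gave 1854 calls, 2962 with NT3 alone, 787 with the compared groups alone and 1061 to 2694 without 1 library. The departure gave 735, then 1899 with NT3 alone, 455 with NT4 alone, 394 with the compared groups alone and 442 to 1436 without 1 library. CCND1 knockdown gave 3594, then 2235 with NT4 alone and 2269 alone. NT4 against NT3 gave 3216, then 955 alone and 2254 to 4141 without 1 library. CCND1 against dual gave 2354 and 3177 alone. Dual against CDK6 gave 1504, then 2434 alone and 937 to 1243 without 1 library.

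Signs changed with the control in these genes. With NT3 alone POLH in senescence was -0.12 and TP53INP1 after CCND1 knockdown 0.64. With NT4 alone, after CDK4 knockdown TP53INP1 was -0.22, PERP 0.031 and GDF15 0.039; after CDK6 knockdown SESN1 was -0.15 and TP53INP1 -0.68; in the dual knockdown CMBL was -0.039, TP53INP1 -0.43 and TRIAP1 0.011; and KITLG in senescence was 0.093. Against proliferating cells the dual knockdown gave AEN 0.11 and PPM1D 0.093 after median centring, 0.01 and 0.12 after quantile normalization, and AEN 0.0024 in DESeq2. Without 1 library, GDF15 after CDK4 knockdown ranged from -0.058 to 0.050, and in the dual knockdown against proliferating cells AEN ranged from -0.070 to 0.064, PPM1D from -0.095 to 0.060 and XPC from -0.0071 to 0.043.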
